A study of Drosophila melanogaster with 14 samples.

Results

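The responses of type II neural stem cells to HDAC1 RNAi and to Osa overexpression were set side by side, gene by gene, in the RNA of larval brains of Drosophila melanogaster. The libraries were chosen by their labels alone: 8 of the 14 libraries of the series belong to these experiments, and the other 6 come from a GAF RNAi experiment that shares no library with them. The 4 groups held 2 libraries each, with the genotypes HDAC1 RNAi, WT controls of that experiment, Osa overexpression, and WT controls of that experiment. Every library was made from polyadenylated RNA of 1k to 2k cells labelled type II NSC, amplified before sequencing. The labels name no driver line, larval age or sex and do not say whether replicates came from separate animals. The p-values therefore reflect how far these libraries differ among themselves, possibly for technical reasons only.

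Type II neural stem cells, also called type II neuroblasts, divide asymmetrically and produce intermediate neural progenitors, which divide further and give ganglion mother cells, neurons and glia. HDAC1 removes acetyl groups from histone tails and is the catalytic subunit of several co-repressor complexes. Osa is a large DNA-binding subunit found in the BAP type of SWI/SNF nucleosome remodellers, and BAP is known to limit overproliferation of neural stem cell lineages in the larval brain.

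Total counts ranged from 31788351 to 35648398 per library. Values are counts per 1e6 counts (CPM), scaled by trimmed-mean (TMM) factors over the 8 libraries, and log2 fold changes ± standard error (SE) compare each manipulated pair with its own controls in 1 fit of the 8 libraries, unless another source is named. The 2 HDAC1 RNAi libraries lay further apart than the libraries of the other groups, with a Pearson r of 0.9455 over log2 CPM, against 0.9726 to 0.9779 in the others. The label of the cells was checked against stem cell genes, and dpn and pnt were detected in all 8 libraries. In the HDAC1 experiment dpn, a neuroblast transcription factor, had 7.57 and 2.09 CPM in HDAC1 RNAi, against 9.71 and 9.04 CPM in its controls. The same gene had 35.2 and 52.8 CPM in Osa overexpression, against 49.1 and 60.2 CPM in its controls. Of the exonic bases of dpn, 59.3% overlap an antisense RNA gene, and the library kit does not mark strand. All 8 libraries also held RNA of genes of later cells of the lineage, such as pros and elav. In bulk RNA, fewer cells of a type and less RNA per cell cannot be told apart.

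The targeted genes differed between the experiments. HDAC1 RNA was measured at 67.5 and 36.4 CPM in HDAC1 RNAi, against 79.5 and 87.2 CPM in its controls (−0.68 ± 0.31 log2), and in the test of that experiment alone the difference did not pass (edgeR quasi-likelihood test, Benjamini-Hochberg adjusted p = 0.576). In Osa overexpression HDAC1 stood at 366 and 339 CPM, against 263 and 251 CPM in its controls (0.46 ± 0.31, adjusted p = 0.0366 in the Osa experiment alone). Thus both HDAC1 RNAi libraries lay below their controls and both Osa overexpression libraries above theirs. The RNA of osa was 270.3 and 263 CPM in Osa overexpression, against 133 and 136 CPM in its controls (0.99 ± 0.32, adjusted p = 0.0029), the direction of an overexpression, as labelled. In the series' design text the same manipulation is called a knockdown. With HDAC1 RNAi, osa stood at 135 and 78.2 CPM, against 106 and 73.7 CPM in its controls, and the groups overlapped. HDAC1 lies on chromosome 3L from 4626734 to 4629467 (plus strand) and osa on chromosome 3R from 17687818 to 17718350 (minus strand) in the BDGP6 assembly.

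The responses to HDAC1 RNAi and Osa overexpression pointed the same way for most expressed genes. By a rule given below, 6 of 14 intermediate progenitor genes, 6 of 12 newborn neuron genes and 5 of 24 mature neuron genes were higher in both. Of 85 cytosolic ribosomal protein genes 56 were lower in both, as were 4 of 19 stem cell genes and 4 of 15 temporal patterning genes. Over the 10695 genes tested, 66.9% had the same sign in both responses, with a Pearson r of 0.21 and a Spearman rho of 0.376. These are descriptions across genes, which are not independent replicates. The value grew with expression. Spearman rho was 0.109 over the 2380 genes with a mean below 1 CPM, 0.308 over 2047 genes from 1 to 10 CPM, 0.537 over 4554 genes from 10 to 100 CPM and 0.699 over 1714 genes of 100 CPM and more. Over the 6268 genes with a mean of at least 10 CPM, rho was 0.608 and 73.4% shared the sign. The 2 responses have no library in common. Tested singly in the same fit, the HDAC1 RNAi response passed for 10 genes higher (0.0935%) and 19 lower (0.178%), and the Osa response for 11 higher (0.103%) and 39 lower (0.365%). The headers of the Osa columns carry a date prefix that those of the HDAC1 columns lack, so experiment and date cannot be told apart, and each response was taken only against its own controls.

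**Figure D1:**
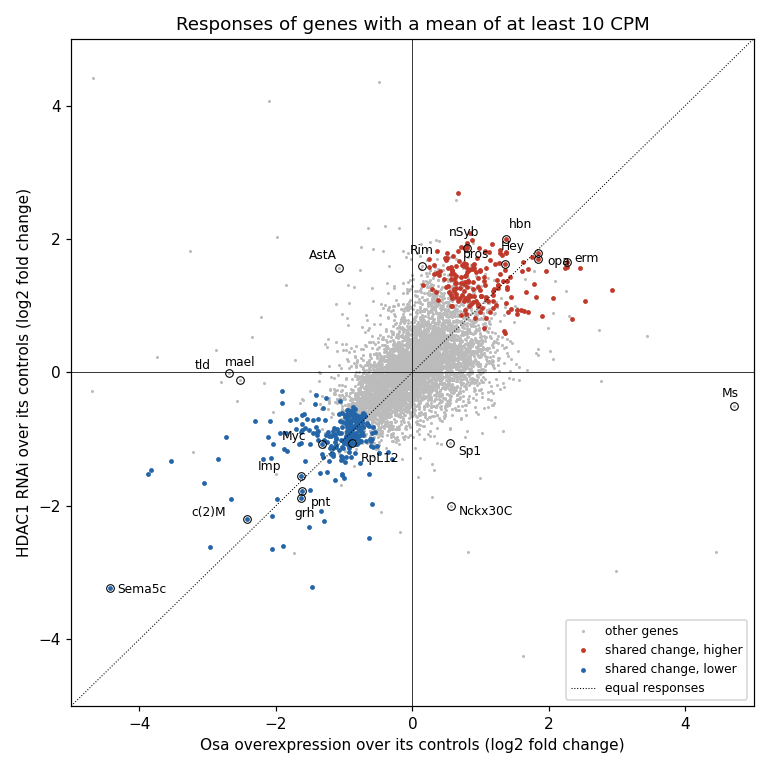
Log2 fold change in HDAC1 RNAi over its controls (vertical axis) against that in Osa overexpression over its controls (horizontal axis) for genes with a mean of at least 10 CPM. Each point is a gene, coloured points are the shared changes defined in the text, circles mark named genes, and 7 of 6268 genes lie outside the axes. Most shared changes sit along the diagonal, while AstA, mael, tld, Ms, Sp1 and Nckx30C lie away from it.

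Read from the Osa side, genes that Osa overexpression changed mostly had the same sign in HDAC1 RNAi. In the Osa experiment alone edgeR called 811 of 9156 genes higher (8.86%) and 1118 lower (12.2%). Of the 811 called higher, 84.5% were above their controls in HDAC1 RNAi, with a median HDAC1 response of 0.50. Of the 1118 called lower, 91.3% were below and 8.68% above, with a median of −0.53. Over all 10695 tested genes, 51.4% were above, with a median of 0.03. Both HDAC1 RNAi libraries lay above both of their controls for 320 of the 811 and below for 28. For the 1118, both lay below for 687 and above for 9. The same counts over all genes are not given here, so these have no background beside them. The HDAC1 experiment alone gave 10 calls among 10299 genes (0.0971%), all lower, where 1222 genes had an unadjusted p under the threshold. Of these 10 genes, 4 had the same sign in the Osa response. CG15212, CG9452, ImpE2, nompC and pio were too scarce in the Osa experiment to be tested in it alone. Of the 10, 2 were also called in the Osa experiment, both in the same direction. They were CG10512, with 14.7 and 11.2 CPM in HDAC1 RNAi, against 74.7 and 82.6 CPM in its controls, and 41.8 and 38.1 CPM in Osa overexpression, against 161 and 138 CPM in its controls, and the long non-coding RNA lncRNA:CR45665.

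The common trend rested mainly on the library labelled HDAC1 RNAi replicate 1. When each HDAC1 RNAi library was set alone against the mean of its controls, over the 6268 genes of at least 10 CPM, rho with the Osa response was 0.673 for replicate 1 and 0.169 for replicate 2. The shares with the same sign were 77.2% for replicate 1 and 54.8% for replicate 2. Without replicate 1, rho over all tested genes was 0.146, and without replicate 2 it was 0.364. Some gene groups were shifted the same way in both libraries, as given for each group below. Ribosomal protein genes of the mitochondrion were not among them.

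**Figure D2:**
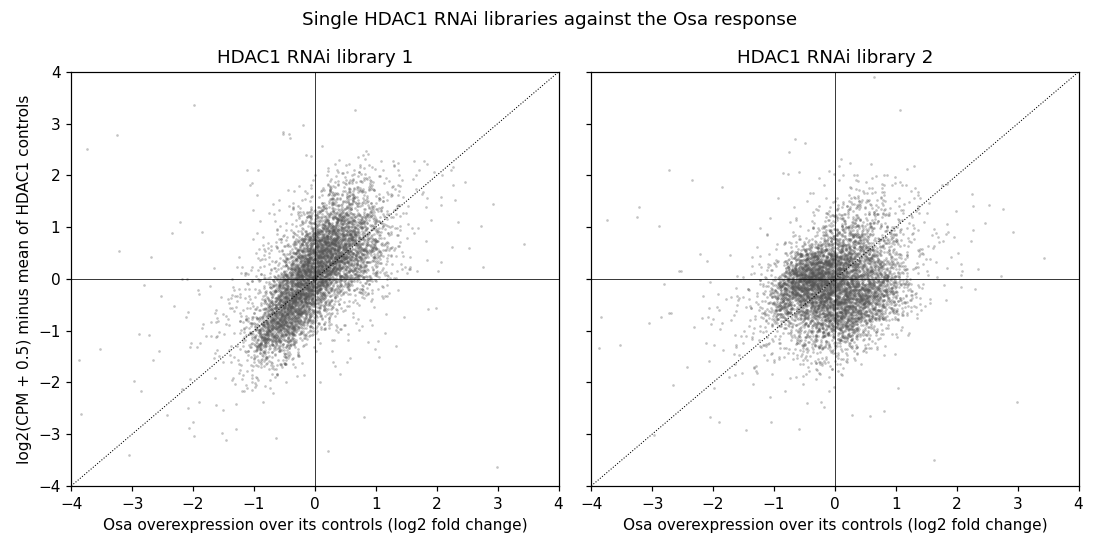
Each HDAC1 RNAi library on its own (log2 of CPM + 0.5 minus the mean of the HDAC1 controls, vertical axis) against the Osa response (log2 fold change, horizontal axis) for the 6268 genes of at least 10 CPM, with the dotted line marking equal values. Points of replicate 1 run along the line (rho 0.673), those of replicate 2 form a rounder cloud (rho 0.169), and 16 and 10 genes lie outside the axes of the plots of replicate 1 and 2.

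A gene was counted as a shared change where the mean of the 2 responses passed edgeR's test in the fit of 8 libraries and where both manipulated libraries of each experiment lay beyond both of their own controls, in the same direction. A pass of the mean alone does not show that both experiments moved. Where a shared change is described below as apart from its controls, this follows from the rule and is no further support. The mean passed for 590 genes (5.52% of those tested), 262 higher (2.45%) and 328 lower (3.07%), of which 551 were shared changes (5.15%): 241 higher (2.25%) and 310 lower (2.9%). For comparison, 1120 genes (10.5%) were above and 1299 (12.1%) below their controls in all manipulated libraries when no test was asked. Of the 551, 442 were also called in the Osa experiment alone and 3 in the HDAC1 experiment alone. At least a 2-fold change in both responses was seen for 95 of the higher and 116 of the lower genes. Among shared changes that were higher, the median was 1.42 in HDAC1 RNAi and 0.99 in Osa overexpression, and 168 of 241 had the larger response in HDAC1 RNAi. Among those that were lower, the medians were −1.01 in HDAC1 RNAi and −1.05 in Osa overexpression.

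The number of shared changes depended on single libraries. It was 1709 without HDAC1 RNAi replicate 1 and 3449 without replicate 2, where the remaining library was assumed to vary like those of the other groups. It was 87 without HDAC1 control 1, 29 without HDAC1 control 2, 21 without Osa overexpression 1, 94 without Osa overexpression 2, 94 without Osa control 1 and 85 without Osa control 2. Nearly all of the 551 genes kept the call without HDAC1 RNAi replicate 1 or without replicate 2. This says little, as the rule already asks both libraries to lie beyond both controls. Leaving 1 out keeps that part met and takes the spread of the pair out of the fit. Scaling by library size alone moved the median log2 fold change of all genes to 0.33 in HDAC1 RNAi and 0.31 in Osa overexpression, from 0.03 in each, and the share of higher genes among shared changes to 71.3%, against 43.7% with TMM. Changes below are therefore relative to the TMM scale.

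Genes of intermediate progenitors were higher in both experiments. Of the 14 tested genes of that list, 6 were shared changes and higher (erm, ham, opa, D, hbn and Rx) and 1 was lower (grh), against 2.25% and 2.9% of all genes. The list medians were 1.52 in HDAC1 RNAi and 1.24 in Osa overexpression, against 0.03 in each over all genes. The gene erm (earmuff) encodes a zinc-finger factor that keeps intermediate progenitors from reverting to stem cells. It had 39.5 and 16.6 CPM in HDAC1 RNAi, against 11.99 and 5.84 CPM in its controls, and 67.3 and 40.7 CPM in Osa overexpression, against 14.2 and 8.25 CPM in its controls. All 4 manipulated libraries lay above their own controls, by 1.66 ± 0.51 and 2.27 ± 0.52 on the log2 scale (adjusted p of the mean = 0.024). The zinc-finger gene opa, a temporal factor of these progenitors, stood at 45.1 and 19.9 CPM in HDAC1 RNAi, against 11.4 and 7.49 CPM in its controls, and at 172 and 97.6 CPM in Osa overexpression, against 34.9 and 40.5 CPM in its controls. Its responses were nearly equal (1.79 ± 0.43 and 1.84 ± 0.43). The homeobox gene Rx reached 21.4 and 16.6 CPM in HDAC1 RNAi, against 4.67 and 5.12 CPM in its controls, and 12.2 and 5.95 CPM in Osa overexpression, against 0.791 and 1.73 CPM in its controls, with no overlap in either experiment (1.95 ± 0.48 and 2.84 ± 0.51). For hbn, another homeobox gene, the responses were 2.00 ± 0.33 and 1.37 ± 0.32, for the Sox gene D 1.66 ± 0.46 and 1.62 ± 0.46, and for ham, a Prdm-family factor, 1.52 ± 0.50 and 1.95 ± 0.50. The exception, grh, encodes a transcription factor of late stem cells and of progenitors. It fell to 58.3 and 60.9 CPM in HDAC1 RNAi, against 222 and 219.7 CPM in its controls, and to 97.3 and 113 CPM in Osa overexpression, against 309 and 343 CPM in its controls (mean −1.76 ± 0.18, adjusted p = 0.00155), with 19.1% of its exonic bases shared with antisense features. The gene ase, which type II stem cells lack and their progenitors gain, was higher in both Osa overexpression libraries, 198 and 188 CPM against 65.6 and 46.3 CPM in the controls. In HDAC1 RNAi it was high in 1 library, 37.3 and 6.65 CPM against 10.1 and 5.19 CPM in the controls, and the groups overlapped (mean 1.66 ± 0.44, adjusted p = 0.0563).

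Without HDAC1 RNAi replicate 1 the progenitor list held 8 shared changes that were higher and its HDAC1 median was 0.62, and without replicate 2 these values were 11 and 2.03. It held 0 without HDAC1 control 2 or without Osa overexpression 1, and 3 to 5 without any 1 of the other control and Osa libraries, while its Osa median stayed between 1.11 and 1.46.

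Genes of ganglion mother cells and newborn neurons were likewise higher. All 12 tested members had a positive response in both experiments, and 6 were shared changes (pros, nerfin-1, elav, Hey, pdm3 and jim), with medians of 1.28 in HDAC1 RNAi and 0.85 in Osa overexpression. The homeodomain gene pros, which ends self-renewal in the daughters of neural stem cells, had 2122 and 1589.7 CPM in HDAC1 RNAi, against 553 and 651 CPM in its controls. In Osa overexpression it had 423 and 369 CPM, against 116 and 192 CPM in its controls. Both pairs stood clear of their controls (1.62 ± 0.31 and 1.36 ± 0.31, adjusted p of the mean = 0.00873). For nerfin-1, a zinc-finger factor that maintains young neurons, the values were 159 and 60.5 CPM in HDAC1 RNAi, against 44.1 and 30.9 CPM in its controls, and 162 and 127 CPM in Osa overexpression, against 46.6 and 42.1 CPM in its controls. Here HDAC1 RNAi replicate 1 was the higher of its pair, and neither pair overlapped its controls. The Notch-responsive bHLH gene Hey, a marker of newborn neurons, stood at 69.8 and 84.3 CPM in HDAC1 RNAi, against 29.2 and 18.5 CPM in its controls, and at 20.1 and 16.2 CPM in Osa overexpression, against 6.296 and 3.86 CPM in its controls. Its responses were 1.69 ± 0.35 and 1.84 ± 0.36. The neuronal RNA-binding protein gene elav, 27.9% of whose exonic bases overlap a non-coding gene on the same strand, had 287 and 182 CPM in HDAC1 RNAi, against 103 and 81.99 CPM in its controls, and 98.5 and 99.1 CPM in Osa overexpression, against 67.9 and 60.8 CPM in its controls (1.34 ± 0.29 and 0.62 ± 0.29). Leaving out 1 library gave 8 or 9 shared changes in this list where it was an HDAC1 RNAi library, 0 where it was HDAC1 control 2 or Osa overexpression 1, and 3 or 4 otherwise.

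Some genes of mature neurons were higher in both experiments as well, and the median of their list was smaller in Osa overexpression. Of 24 tested members 22 were positive in both responses, 5 were shared changes (nSyb, Syt1, ChAT, cpx and Rab3), and the medians were 1.15 in HDAC1 RNAi and 0.26 in Osa overexpression. The synaptic vesicle gene nSyb had 132 and 123 CPM in HDAC1 RNAi, against 38.8 and 31.2 CPM in its controls, and 229 and 172 CPM in Osa overexpression, against 124 and 105 CPM in its controls (1.86 ± 0.28 and 0.81 ± 0.27). No library overlapped the other group in either experiment. For ChAT, the enzyme of acetylcholine synthesis, the responses were 1.43 ± 0.39 and 1.05 ± 0.39, and for the vesicle GTPase gene Rab3 1.72 ± 0.40 and 0.94 ± 0.39. The fusion-clamp gene cpx showed 1.45 ± 0.28 and 0.39 ± 0.27, and the calcium sensor gene Syt1 1.79 ± 0.36 and 0.51 ± 0.35. In single libraries the median of the list lay 1.41 and 0.87 above the control mean in HDAC1 RNAi and 0.35 and 0.28 above it in Osa overexpression. The list held 10 shared changes without HDAC1 RNAi replicate 1 and 13 without replicate 2, but 0 or 1 without any 1 of the control or Osa overexpression libraries.

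**Figure D3:**
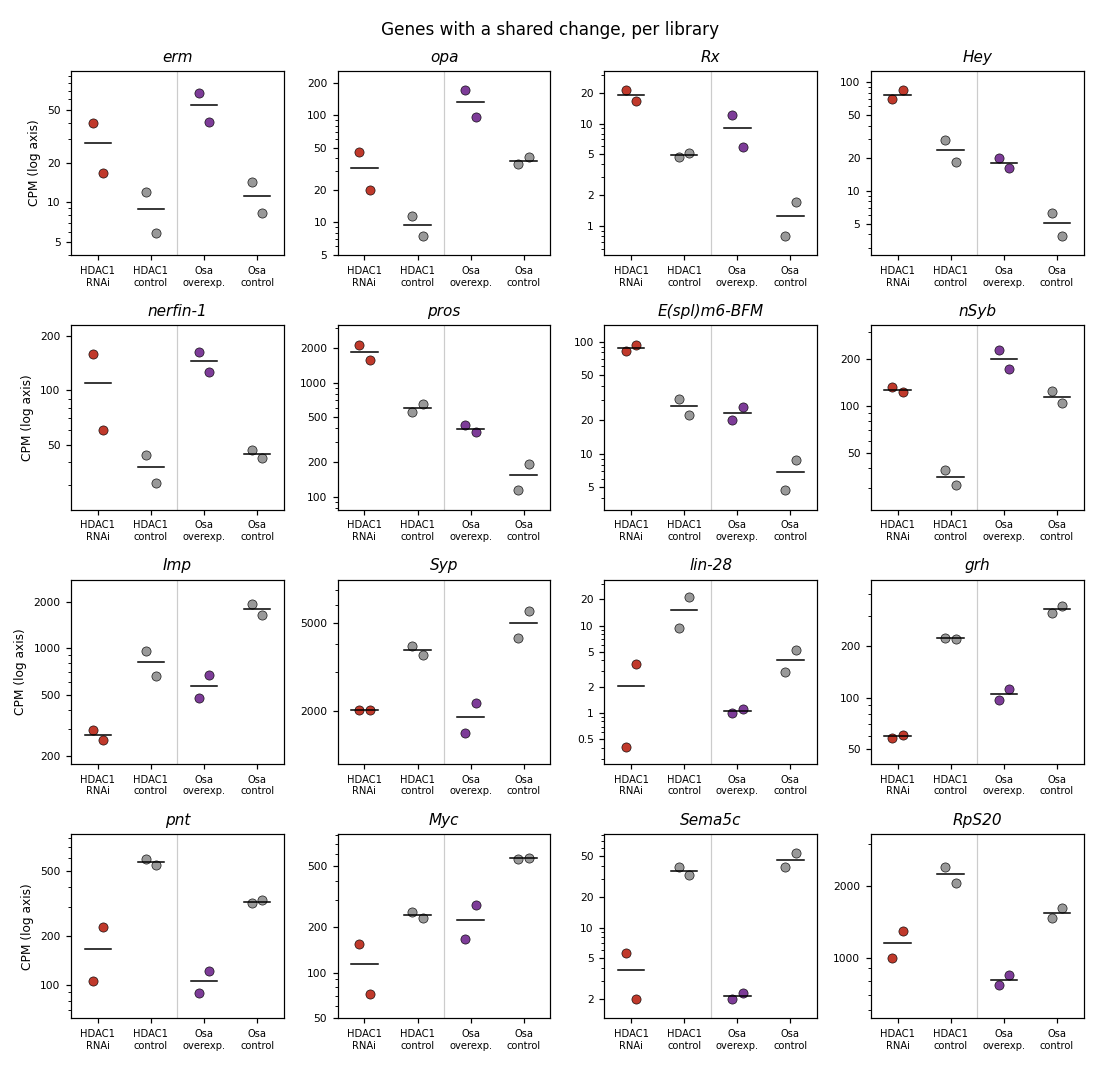
CPM (log axis) of 16 genes with a shared change in each library: HDAC1 RNAi (red), HDAC1 controls (grey), Osa overexpression (purple) and Osa controls (grey), with the bar at the group mean. In each panel both manipulated libraries lie on the same side of both of their controls in both experiments, as the rule for a shared change requires.

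Among Notch pathway genes, 3 of 26 were shared changes, all higher and all in the Enhancer of split complex, whose genes are direct targets of Notch. E(spl)m6-BFM, of the Bearded family, had 82.6 and 92.8 CPM in HDAC1 RNAi, against 30.7 and 22.2 CPM in its controls, and 20.1 and 25.97 CPM in Osa overexpression, against 4.78 and 8.87 CPM in its controls. The groups stood apart in both (1.73 ± 0.35 and 1.76 ± 0.36). The bHLH repressor genes E(spl)m3-HLH and E(spl)m7-HLH showed 1.13 ± 0.31 and 1.54 ± 0.38 in HDAC1 RNAi, and 1.08 ± 0.31 and 0.99 ± 0.38 in Osa overexpression. Of 19 glial genes 2 were shared changes and higher: Gs2, a glutamine synthetase (1.57 ± 0.51 and 2.27 ± 0.54), and gcm, the glial fate switch (1.81 ± 0.42 and 1.06 ± 0.41). Of 24 axon guidance and adhesion genes, Con and Toll-6, cell surface proteins with leucine-rich repeats, were higher, and the immunoglobulin-family gene side was lower. Leaving out HDAC1 control 2 left 0 of the Notch and 0 of the glial genes, and leaving out HDAC1 RNAi replicate 2 gave 8 and 8. The response of side was −0.63 ± 0.30 in HDAC1 RNAi and −1.59 ± 0.30 in Osa overexpression.

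Some stem cell genes were lower in both experiments. Of the 19 tested, 4 were shared changes, all lower (pnt, klu, Myc and mira), and the medians were −0.66 in HDAC1 RNAi and −0.25 in Osa overexpression. In single libraries the median was −0.11 and −0.92 in HDAC1 RNAi replicates 1 and 2, and −0.35 and −0.12 in Osa overexpression. Only 14 of the 19 had the same sign in both responses, 11 negative and 3 positive. In the Osa experiment alone 5 members were called lower and 3 higher. With library size alone the Osa median was 0.03 and 2 members were shared changes. The ETS factor gene pnt, which specifies type II identity, had 105 and 228 CPM in HDAC1 RNAi, against 592 and 544 CPM in its controls, and 88.8 and 122 CPM in Osa overexpression, against 319.6 and 330.2 CPM in its controls. Every manipulated library lay below its controls (−1.77 ± 0.36 and −1.62 ± 0.36, adjusted p of the mean = 0.0101). Myc, a growth regulator, stood at 154 and 71.97 CPM in HDAC1 RNAi, against 251 and 227 CPM in its controls, and at 166 and 279 CPM in Osa overexpression, against 556 and 563 CPM in its controls. Its exons overlap other genes on the same strand over 20.3% and on the other strand over 40.9% of their bases. The zinc-finger gene klu, a self-renewal factor, showed −1.52 ± 0.28 and −0.63 ± 0.28, and mira, the adaptor that carries fate determinants into the daughter cell, −1.20 ± 0.28 and −0.36 ± 0.27. In the Osa experiment alone mira did not pass (adjusted p = 0.182). For dpn the mean response was −0.63 ± 0.35 (adjusted p = 0.282), and the Osa groups overlapped. The list held 9 shared changes that were lower without HDAC1 RNAi replicate 1 and 7 without replicate 2, but 0 or 1 without any 1 of the other libraries.

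Of 15 temporal patterning genes, 4 were shared changes and lower: Imp, Syp, svp and lin-28. Imp and Syp encode RNA-binding proteins known for opposing gradients in ageing neuroblasts, Imp early and Syp late, and here both were lower in both experiments. Imp had 296 and 256 CPM in HDAC1 RNAi, against 961 and 660.4 CPM in its controls, and 477 and 669 CPM in Osa overexpression, against 1937 and 1629 CPM in its controls (−1.56 ± 0.30 and −1.64 ± 0.30). Syp had 2019.6 and 2007 CPM in HDAC1 RNAi, against 3923 and 3582 CPM in its controls, and 1589 and 2167 CPM in Osa overexpression, against 4279 and 5653 CPM in its controls (−0.90 ± 0.27 and −1.40 ± 0.27). Neither gene had overlapping groups. The RNA-binding protein gene lin-28 was scarcer, with 0.412 and 3.62 CPM in HDAC1 RNAi, against 9.27 and 21.2 CPM in its controls, and 1.002 and 1.11 CPM in Osa overexpression, against 2.94 and 5.24 CPM in its controls. The nuclear receptor gene svp, a switching factor, showed −0.69 ± 0.34 and −1.54 ± 0.34. The median of the 15 genes was near 0 (−0.10 in HDAC1 RNAi and −0.19 in Osa overexpression) and turned to 0.25 and 0.09 with library size alone, so the list as a whole showed no direction. Leaving out any 1 control or Osa overexpression library left 0 to 2 of its lower shared changes.

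Cytosolic ribosomal protein genes were lower in both experiments. Of 85 tested, 82 had a negative response in both experiments, 56 were shared changes, all lower, and the medians were −0.71 in HDAC1 RNAi and −0.81 in Osa overexpression. The median of the list lay 0.91 and 0.56 below the control mean in the HDAC1 RNAi libraries and 0.89 and 0.71 below it in the Osa overexpression libraries. RpS20 had 996 and 1296 CPM in HDAC1 RNAi, against 2398 and 2064 CPM in its controls, and 765 and 847 CPM in Osa overexpression, against 1463 and 1620.3 CPM in its controls. RpL12 had 546 and 689.99 CPM in HDAC1 RNAi, against 1368 and 1215 CPM in its controls, and 453 and 553 CPM in Osa overexpression, against 862 and 1003 CPM in its controls. For both genes the responses were close (−0.96 ± 0.25 and −0.94 ± 0.25 for RpS20, −1.06 ± 0.26 and −0.89 ± 0.26 for RpL12). With library size alone the medians kept their sign (−0.45 in HDAC1 RNAi and −0.53 in Osa overexpression) and 23 members were shared changes. Without any 1 control library of either experiment, or any 1 Osa overexpression library, 0 members were shared changes, while 80 were without HDAC1 RNAi replicate 1 and 81 without replicate 2.

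Mitochondrial genes split the HDAC1 RNAi libraries. Of 72 mitochondrial ribosomal protein genes, 57 were called lower in the Osa experiment alone and 4 were shared changes, but 31 were without HDAC1 RNAi replicate 1 and 67 without replicate 2. Their median lay 0.95 and 0.05 below the controls in HDAC1 RNAi replicates 1 and 2, and 0.81 and 0.59 below them in the Osa overexpression libraries. The 68 nuclear genes of oxidative phosphorylation gave the same picture, with medians of −0.94 and −0.05 in HDAC1 RNAi and −0.71 and −0.51 in Osa overexpression, and with 1 shared change, against 18 without HDAC1 RNAi replicate 1 and 56 without replicate 2. The 15 genes of the mitochondrial genome went opposite ways in the HDAC1 RNAi libraries, 1.45 in replicate 1 and −0.91 in replicate 2, and were −1.13 and −0.41 in Osa overexpression. Ribosome biogenesis genes had medians below 0 in all 4 manipulated libraries (−0.68 and −0.57 in HDAC1 RNAi and −0.40 and −0.42 in Osa overexpression), with 4 of 34 shared changes: Fib, the methyltransferase of nucleolar small RNA particles, RpI12, a subunit of RNA polymerase I, NHP2 and Non3. The list held 17 lower shared changes without HDAC1 RNAi replicate 1, and 18 lower and 2 higher without replicate 2. Of the insulin and TOR pathway, InR, the insulin receptor (−0.93 ± 0.28 and −1.13 ± 0.28), and its target factor foxo (−1.33 ± 0.37 and −1.58 ± 0.37) were shared changes and lower, among 19 tested. With library size alone the pathway held 0 shared changes and its medians turned to 0.26 in HDAC1 RNAi and 0.16 in Osa overexpression, against −0.11 and −0.12 with TMM.

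**Figure D4:**
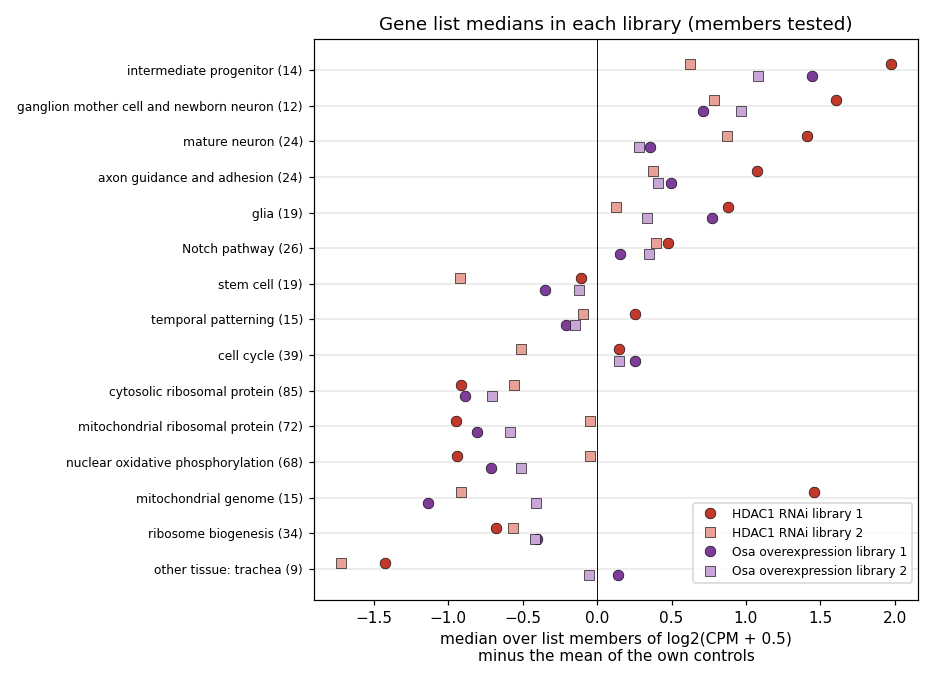
Median over the tested members of 15 gene lists (number in brackets) of log2(CPM + 0.5) minus the mean of the own controls, for each HDAC1 RNAi library (red) and each Osa overexpression library (purple). Progenitor and neuron lists lie right of 0 and cytosolic ribosomal protein genes left of 0 in all 4 libraries. The HDAC1 RNAi libraries part over the mitochondrial lists, and on the scale of library size alone the fitted medians turn to above 0 for stem cell genes in Osa overexpression (0.03), temporal genes in both (0.25 and 0.09) and cell cycle genes in HDAC1 RNAi (0.22).

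Genes outside these lists led the largest shared changes, once genes with a CG or CR number and non-coding RNAs were set aside. Some of those set aside changed more than genes named here. Examples are lncRNA:CR45665 (−9.55 ± 1.32 in HDAC1 RNAi and −8.43 ± 0.96 in Osa overexpression) and CG34357 (−2.62 ± 0.51 and −2.97 ± 0.51). Sema5c, a transmembrane semaphorin, had 5.63 and 1.99 CPM in HDAC1 RNAi, against 39.5 and 32.7 CPM in its controls, and 1.98 and 2.29 CPM in Osa overexpression, against 38.7 and 53.7 CPM in its controls. It was far below its controls in all 4 manipulated libraries (−3.23 ± 0.47 and −4.43 ± 0.50, adjusted p of the mean = 0.00143). The zinc transporter gene ZnT41F showed 2.45 and 1.46 CPM in HDAC1 RNAi, against 14.5 and 11.5 CPM in its controls, and 1.002 and 1.88 CPM in Osa overexpression, against 18.7 and 17.8 CPM in its controls. c(2)M, a component of the meiotic synaptonemal complex, showed 4.15 and 8.38 CPM in HDAC1 RNAi, against 25.2 and 32.1 CPM in its controls, and 4.58 and 8.35 CPM in Osa overexpression, against 39.7 and 30.002 CPM in its controls. Neither gene had overlapping groups. Also lower in both were mil, a nucleosome assembly protein (−3.23 ± 0.51 and −3.21 ± 0.53), Gfat1, an enzyme of hexosamine synthesis (−3.28 ± 0.49 and −2.59 ± 0.53), the immune-induced peptide gene IM14 (−2.69 ± 0.61 and −2.15 ± 0.61) and Tmhs (−1.90 ± 0.35 and −2.66 ± 0.35). On the higher side, the neuropeptide gene Mip had 11.3 and 4.85 CPM in HDAC1 RNAi, against 1.88 and 0.7903 CPM in its controls, and 18.7 and 14.4 CPM in Osa overexpression, against 3.89 and 2.46 CPM in its controls. The ETS factor gene Ets96B, with 15.9% of its exonic bases antisense to other genes, had 9.27 and 11.2 CPM in HDAC1 RNAi, against 2.06 and 1.41 CPM in its controls, and 1.503 and 2.09 CPM in Osa overexpression, against 0.348 and 0.293 CPM in its controls. The responses were 2.60 ± 0.57 and 2.38 ± 0.55 for Mip and 2.56 ± 0.48 and 2.47 ± 0.52 for Ets96B. For alpha-Catr, a relative of alpha-catenin, both were 1.65 (adjusted p of the mean = 0.0315).

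Most chromatin lists held no shared change with all 8 libraries, and some of their HDAC1 medians depended on the HDAC1 RNAi pair. With 2.25% higher and 2.9% lower over all genes, 0 in lists this short does not set them apart. There were 0 shared changes by edgeR among 12 genes of SWI/SNF remodellers, 20 of histone deacetylase complexes, 17 of histone acetylation, 23 Polycomb genes and 8 Hox genes. At an unadjusted p under the threshold 2 SWI/SNF, 1 deacetylase complex and 4 Polycomb genes met the rule, all higher, and no acetylation or Hox gene. Over all genes the mean had such a p for 25%, before the libraries were asked to lie apart. DESeq2 gave 1 in SWI/SNF and 4 in Polycomb, limma-voom with quality weights 2 in Polycomb, and both gave 0 in the other lists. The HDAC1 median of acetylation genes was 0.02 with both HDAC1 RNAi libraries, −0.44 without replicate 1 and 0.39 without replicate 2. The HDAC1 median of Polycomb genes was 0.24 with both libraries, −0.14 without replicate 1 and 0.48 without replicate 2. With library size alone the median turned to 0.12 for Hox genes in HDAC1 RNAi, against −0.14, and to 0.24 for Trithorax genes in Osa overexpression, against −0.04. Of 21 Trithorax and Mediator kinase genes 1 was lower in both, ash2, a subunit of histone H3 methyltransferase complexes (−0.79 ± 0.25 and −0.65 ± 0.25). Single shared changes in other lists included fzr, the exit activator of the cell cycle (1.22 ± 0.32 and 0.62 ± 0.31), the pro-apoptotic gene rpr (0.93 ± 0.33 and 1.6 ± 0.35) and mle, an RNA helicase of dosage compensation (0.90 ± 0.36 and 1.13 ± 0.36), all higher. tai, a co-activator of the ecdysone receptor (−0.94 ± 0.28 and −1.18 ± 0.28), was lower. These were 1 of 39 cell cycle, 1 of 27 cell death and stress, 1 of 9 dosage compensation and 1 of 20 ecdysone genes. Beside 2.25% higher and 2.9% lower over all genes, such single genes do not speak for their lists.

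The genes with the largest parts in the correlation were mostly scarce. A gene's part is its product of the 2 deviations from the mean response, as a share of the sum over all 10695 genes. The 10 largest parts made 15.8% of the sum and the 100 largest 55.8%, yet only 1 of those 10 and 9 of those 100 had a group mean of 10 CPM or more. Leaving out the 100 largest left rho at 0.359, near the 0.376 of all genes, and lowered Pearson r to 0.107 from 0.21. Of the 10 largest, 9 were lower in both experiments, among them lncRNA:CR45665, with 0 and 0 CPM in HDAC1 RNAi, against 3.98 and 1.51 CPM in its controls, and 0.0752 and 0 CPM in Osa overexpression, against 16.1 and 12.6 CPM in its controls. The bestrophin-family channel gene Best4 likewise had 0 and 0.0665 CPM in HDAC1 RNAi, against 4.599 and 2.16 CPM in its controls, and 0.0501 and 0 CPM in Osa overexpression, against 4.33 and 6.15 CPM in its controls. Some of the 10 rested on 1 control library: lncRNA:CR32835 had no counts in any manipulated library, and 7.13 and 0.0344 CPM in the HDAC1 controls and 0 and 4.595 CPM in the Osa controls. The most negative parts also came from scarce genes, such as lncRNA:CR42765, with 2.38 and 0.0332 CPM in HDAC1 RNAi, against 0 and 0.0687 CPM in its controls, and 0 and 0.0258 CPM in Osa overexpression, against 4.75 and 1.96 CPM in its controls.

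Among the 6268 genes of at least 10 CPM the sum was spread widely. By their rule, shared changes moved in the same direction in both responses and had a mean that passed. Large positive parts are therefore built into their choice. The 433 shared changes, 6.91% of these genes, held 47.2% of the sum. The 25 largest parts held 10.7%, and 23 of these 25 genes were shared changes. Sema5c came first with 1.16%. The limit of 10 CPM is a mean over the 8 libraries, so a gene can still be scarce in 1 experiment. CG12239, second with 0.956%, had 0.301 and 0.361 CPM in Osa overexpression, against no counts in its controls. It had 57.0 and 97.1 CPM in HDAC1 RNAi, against 18.5 and 22.8 CPM in its controls. The 81 cytosolic ribosomal protein genes among the 6268 together held 4.06%. The lists of stem cells, progenitors, newborn neurons, mature neurons, axon guidance and temporal patterning held 108 tested genes. Over these, rho was 0.643 and 84.3% had the same sign, and rho over the other 10587 genes was 0.371. Those other genes include the scarce ones, in which rho was low. Over the 6268 genes of at least 10 CPM rho was 0.608, close to the value of the lists. The lists were also chosen with earlier results of these data known.

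The difference of the responses was tested directly, as HDAC1 RNAi minus Osa overexpression, in the fit of 8 libraries. A single gene of 10695 passed (0.00935%), mthl8, a receptor gene of the methuselah-like family on chromosome 3L. It had no counts in either HDAC1 RNAi library, against 29.01 and 18.6 CPM in its controls, at least 566-fold lower when 3 counts are allowed in the HDAC1 RNAi group as a whole. In Osa overexpression it had 34.7 and 36.97 CPM, against 27.02 and 35.1 CPM in its controls, and those groups overlapped (adjusted p of the difference = 0.000765). The summed level of 10 tracheal genes, given with other markers below, was also lower in both HDAC1 RNAi libraries than in their controls, and its part in this difference was not tested. At an unadjusted p under the threshold stood 661 genes (6.18%), with the difference above 0 for 314 and below 0 for 347. DESeq2 called 48 genes, mthl8 among them. Limma-voom with quality weights called 2 others, Ms and CCHa1, both neuropeptide genes, and not mthl8 (adjusted p = 0.9997). A p that misses the threshold does not show that the responses were alike, and the spread of the HDAC1 RNAi pair enters every one of these tests.

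Of the 24 mature neuron genes, 10 had an unadjusted p of the difference under the threshold, all with the larger response in HDAC1 RNAi, and 0 passed after adjustment over all genes by edgeR, DESeq2 or limma-voom. The median difference was 0.87. The active zone gene Rim had 105 and 84.2 CPM in HDAC1 RNAi, against 37.8 and 24.8 CPM in its controls, and 62.7 and 65.1 CPM in Osa overexpression, against 63.02 and 53.4 CPM in its controls. It stood clear of its controls in HDAC1 RNAi and overlapped them in Osa overexpression (difference 1.46 ± 0.41, adjusted p = 0.703). Other lists had larger median differences, −1.64 for tracheal genes, −1.44 for hemocyte genes and 1.29 for the mitochondrial genome. For progenitor genes the median difference was −0.08 and 0 of 14 had an unadjusted p under the threshold. For newborn neuron genes it was 0.36, with 1 of 12, and for stem cell genes −0.34, with 2 of 19, both below 0.

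Leaving out either HDAC1 RNAi library gave many more calls of the difference, 1049 without replicate 1 and 362 without replicate 2, again with the lone library assumed to vary like the others. Only 72 genes were called both times, 60 of them in the same direction, 31 with the larger value in HDAC1 RNAi and 29 with the larger value in Osa overexpression, and 12 in opposite directions. The genes described next are from these 60 and were chosen after their values were seen. Apart from mthl8 none of them passed edgeR's test in the fit of 8 libraries.

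Some of the 60 had a sizeable response in HDAC1 RNAi and a small response in Osa overexpression. CanB, the regulatory subunit of calcineurin, had 197 and 179.9 CPM in HDAC1 RNAi, against 70.1 and 56.01 CPM in its controls, and 125 and 127 CPM in Osa overexpression, against 121 and 93.5 CPM in its controls. Ggamma30A, a G protein subunit, had 546 and 802 CPM in HDAC1 RNAi, against 209.9 and 136 CPM in its controls, and 465 and 410.5 CPM in Osa overexpression, against 419 and 316 CPM in its controls. The Osa responses were 0.24 ± 0.26 and 0.25 ± 0.31, and CanB, whose Osa groups did not overlap, also met the rule for a shared change. Their differences were 1.34 ± 0.37 and 1.71 ± 0.44 (adjusted p = 0.703 and 0.64). Rab32, a GTPase of lysosome-related organelles, was below its controls in HDAC1 RNAi, with 2.45 and 1.43 CPM against 11.3 and 9.28 CPM in its controls, while Osa overexpression, whose groups overlapped, had 23.0 and 37.1 CPM, against 34.1 and 33.9 CPM in its controls.

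Others had a large response in Osa overexpression and a small response in HDAC1 RNAi. The piRNA pathway gene mael had 12.5 and 17.8 CPM in HDAC1 RNAi, against 20.2 and 12.5 CPM in its controls, and 8.59 and 7.83 CPM in Osa overexpression, against 52.6 and 42.4 CPM in its controls. The metalloprotease gene tld had 19.02 and 8.68 CPM in HDAC1 RNAi, against 14.2 and 13.9 CPM in its controls, and 2.13 and 3.298 CPM in Osa overexpression, against 18.4 and 16.7 CPM in its controls. For both genes the HDAC1 groups overlapped and the Osa groups did not (−2.53 ± 0.36 and −2.69 ± 0.45, adjusted p = 0.000517 and 0.00162 in the Osa experiment alone). The receptor gene mthl10, a relative of mthl8, met the rule for a shared change, with a response of −0.27 ± 0.33 in HDAC1 RNAi and −1.92 ± 0.33 in Osa overexpression.

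A further set had libraries apart in opposite directions. AstA, a neuropeptide gene, had 26.3 and 16.8 CPM in HDAC1 RNAi, against 5.58 and 9.003 CPM in its controls, and 9.62 and 7.21 CPM in Osa overexpression, against 18.2 and 17.2 CPM in its controls. Both HDAC1 RNAi libraries lay above and both Osa overexpression libraries below their controls, and its difference was 2.63 ± 0.54 (adjusted p = 0.325). The zinc-finger gene Sp1, a regulator of type II stem cells together with btd, had 50.1 and 60.2 CPM in HDAC1 RNAi, against 111 and 118 CPM in its controls, and 121 and 126 CPM in Osa overexpression, against 85.5 and 83.4 CPM in its controls. The ion exchanger gene Nckx30C had 50.3 and 22.7 CPM in HDAC1 RNAi, against 129 and 163 CPM in its controls, and 64.7 and 49.7 CPM in Osa overexpression, against 43.3 and 33.6 CPM in its controls. Both stood below their controls in HDAC1 RNAi and above them in Osa overexpression (differences −1.60 ± 0.35 and −2.57 ± 0.53, adjusted p = 0.359 and 0.325). The neuropeptide gene Ms was at 40.6 and 88.8 CPM in HDAC1 RNAi, against 90.4 and 92.7 CPM in its controls, and at 20.1 and 11.7 CPM in Osa overexpression, against 0.886 and 0.322 CPM in its controls (−0.50 ± 0.45 and 4.72 ± 0.56, adjusted p of the difference = 0.111 by edgeR and 0.00304 by limma-voom). Over all genes, 172 (1.61%) were above their controls in both HDAC1 RNAi libraries and below them in both Osa overexpression libraries, and 237 (2.22%) the reverse.

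**Figure D5:**
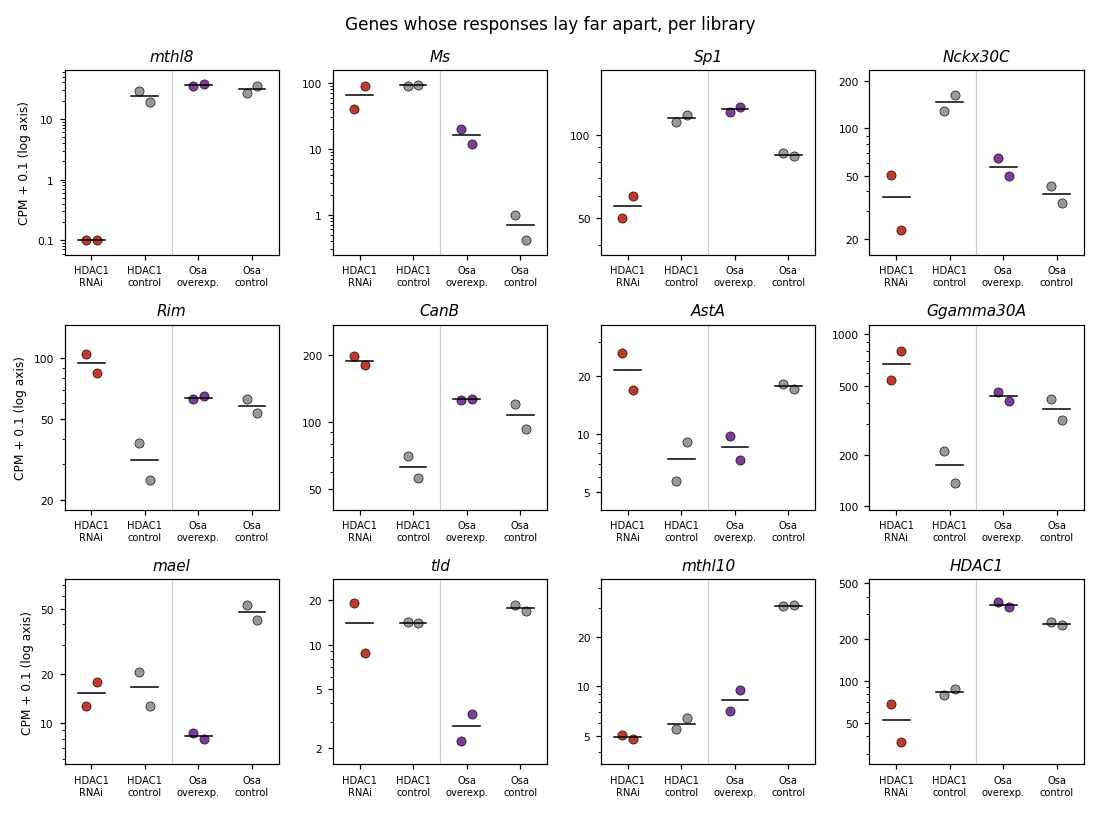
CPM + 0.1 (log axis) of 12 genes in each library of HDAC1 RNAi (red) and its controls (grey) and of Osa overexpression (purple) and its controls (grey), with the bar at the group mean. The gene mthl8 is at 0 counts in both HDAC1 RNAi libraries, and AstA, Sp1, Nckx30C and HDAC1 lie on opposite sides of their controls in the 2 experiments.

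Markers of other cell types moved with some of these differences, and their part in them was not tested. The summed level of 10 tracheal genes was 48.2 and 48.5 CPM in HDAC1 RNAi, against 218 and 242 CPM in its controls, and 13.9 and 11.6 CPM in Osa overexpression, against 9.36 and 12.8 CPM in its controls. Tracheal RNA was thus highest in the HDAC1 controls, none of the 10 genes was at 0 in all 8 libraries, and verm, a chitin deacetylase of the airways, had 7.25 and 11.6 CPM in HDAC1 RNAi, against 49.9 and 71.9 CPM in its controls. The 12 muscle genes summed to 262 and 370 CPM in HDAC1 RNAi, against 269 and 222 CPM in its controls, and to 229 and 226 CPM in Osa overexpression, against 231 and 218 CPM in its controls. The sums hide the members, as the median of these 12 was −1.34 in HDAC1 RNAi and 0.02 in Osa overexpression, and 2 had an unadjusted p of the difference under the threshold, both below 0. Genes of the optic lobe and disc epithelium, 15 in number, summed to 894 and 1367 CPM in HDAC1 RNAi, against 1478 and 1238 CPM in its controls, and to 639.7 and 658 CPM in Osa overexpression, against 771 and 862 CPM in its controls. Hemocyte genes summed to 32.5 to 51.5 CPM in the 8 libraries, but their median over 9 tested members was −0.96 in HDAC1 RNAi and 0.83 in Osa overexpression. Of these 9, 6 were negative in HDAC1 RNAi and positive in Osa overexpression, and 3 had an unadjusted p of the difference under the threshold, all below 0. Hormone genes of the ring gland, a list chosen after their values were seen, summed to 1093 and 212 CPM in HDAC1 RNAi, against 621 and 62.5 CPM in its controls, and to 2.2 to 4.95 CPM in the 4 libraries of the Osa experiment. Of the 621 CPM in HDAC1 control 1, 611 CPM came from Akh, a neuroendocrine hormone gene. Without Akh the list summed to 727 and 180.2 CPM in HDAC1 RNAi, against 9.92 and 58.6 CPM in its controls. The ecdysone synthesis gene spok alone had 316 and 23.7 CPM in HDAC1 RNAi, against 1.38 and 2.92 CPM in its controls. In Osa overexpression spok had only 0.702 and 0.696 CPM, against 0.127 and 0.527 CPM in its controls. Even so, spok and sro of this list met the rule for a shared change. The part of spok in the correlation over genes of at least 10 CPM was 0.535%. What such markers add to the shared changes and the agreement was not tested. The eye pigment gene v, often used as a transgene marker, had 3.52 and 1.63 CPM in HDAC1 RNAi, against 0.217 and 0.206 CPM in its controls, and 0.0501 and 0.0515 CPM in Osa overexpression, against no counts in its controls.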

How the data were processed

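RNA was measured in 14 libraries, of which 8 were used. Per the labels, amplification used the Discover-sc WTA Kit V2, followed by the TruePrep DNA Library Prep Kit V2, which does not mark strand. Per the submitters' processing notes, the tools were HISAT2 2.2.1, featureCounts 2.0.3, SAMtools 1.6 and Trim Galore 0.6.10, with the build dm6. Not given in the sources used here were the annotation and the treatment of pairs and of multiply mapped reads. The authors deposited whole-number counts per gene, 17868 genes, without normalization. Of the counts from 1 to 49 in a library, 65.4% to 70.4% were even numbers, so reads of a pair may each have been counted. Amplified reads are not independent molecules, and floors cover counting error only. Totals of 31788351 to 35648398 counts per library set the precision.

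From these counts, each response was first tested in its own experiment, and the mean and the difference of the responses in 1 fit of 8 libraries with 4 groups, by edgeR 4.0.16 (R 4.3.3): TMM scaling, filterByExpr with a minimum count of 10, robust quasi-likelihood test, Benjamini-Hochberg adjustment over all genes tested, threshold 0.05. SE was taken as the size of the log2 fold change over the root of the F statistic. Single libraries are given as log2(CPM + 0.5) minus the mean of their own controls. Genes were placed on the Ensembl 115 annotation of BDGP6, where 17161 matched. Alternatives were DESeq2 1.42.0, limma 3.58.1 with voom and quality weights, other scalings and filters, halved counts, a replicate block, a fit of all 14 libraries, and leaving out each library. The edgeR steps were tested on simulated data.

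Named genes were the targeted genes and main lineage markers, the 8 higher and 8 lower shared changes largest in size at 10 CPM or more, the genes with the largest parts in the correlation, and up to 4 shared members of each list; other members were named after their values were seen. The gene lists, members and rules were chosen with earlier results of these data known. Genes passing the difference without either HDAC1 RNAi library, and the ring gland list, were picked after their values were seen.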

Additional observations from a re-analysis of the deposited data

Results flagged for a closer look

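The difference of the responses, HDAC1 RNAi minus Osa overexpression on the log2 scale, passed edgeR's test for mthl8 (−12.87, adjusted p = 0.000765), and it passed in 16 of the 17 alternatives run. It did not pass with limma-voom and quality weights (−10.88, adjusted p = 0.9997). As the gene had no counts in HDAC1 RNAi, this fitted value is no bound.

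For the genes below, both manipulated libraries of an experiment lay beyond both of their controls in opposite directions, but the difference did not pass the test. Above 0 were AstA at 2.63, the neuropeptide gene Dh31 at 1.47, the potassium channel gene Task6 at 1.32, the secreted activin-like ligand gene daw at 3.53, Whamy, an actin nucleation factor, at 2.42 and smal at 1.27. For daw the values were 15.6 and 19.1 CPM in HDAC1 RNAi, against 9.995 and 10.3 CPM in its controls, and 0.2004 and 0.0515 CPM in Osa overexpression, against 1.202 and 0.556 CPM in its controls.

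Below 0 were HDAC1 itself at −1.14, Sp1 at −1.60, Nckx30C at −2.57, Ms at −5.22, Kank at −2.96, the forkhead gene fd102C at −1.93, CAH7, a carbonic anhydrase, at −2.21, and Hsp70Bb at −1.74, whose near-identical copies make its count uncertain. Kank had 4.71 and 5.72 CPM in HDAC1 RNAi, against 19.9 and 20.8 CPM in its controls, and 9.45 and 7.24 CPM in Osa overexpression, against 4.75 and 3.63 CPM in its controls, with 17.9% of its exonic bases in overlap with another gene.

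The cuticle gene Cpr64Aa (−6.65), the tracheal gene verm (−7.14), the hemocyte gene He (−9.34) and inaC, an eye protein kinase C (−12.23), were at or near 0 counts in at least 1 group, and their fitted values are no bounds. In Osa overexpression He had 1.203 and 0.515 CPM, against no counts in its controls. Across all genes, 1.61% and 2.22% had libraries apart in opposite directions in one or the other sense.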

How the results depend on the processing

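The difference of responses was called for 1 gene in edgeR, for 118 with no filter on low counts, 48 with DESeq2, 2 with limma-voom and 21 with a replicate block. Calls of the HDAC1 RNAi response, 10 in its own experiment, were 0 with library size alone, 309 with no filter, 294 with DESeq2, 221 with limma-voom, 345 in a fit of all 14 libraries, 29 in a fit of the 8 and 38 with halved counts. Calls of the Osa overexpression response, 1929 in its own experiment, were 354 in the fit of all 14 libraries and 50 in the fit of the 8. The mean of responses passed for 590 genes, and for 1467 with no filter, 1500 with DESeq2, 1139 with limma-voom and 1341 with all 14 libraries. Shared changes numbered 551, and 1070 with no filter, 1240 with DESeq2, 1000 with limma-voom and 1139 with all 14 libraries. Of the 551 genes, 544 stayed shared changes with DESeq2, 514 with limma-voom and 309 with library size alone. Spearman rho over genes, 0.376, was 0.214 with no filter, 0.587 with a mean of at least 5 CPM and 0.445 with halved counts. The cause of these changes was not tested.

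Replicate numbers were shared by the groups, but with only 2 pairs a number could not be shown to pair libraries. Correlations of the deviations of same-numbered libraries were 0.136 in the HDAC1 and 0.00569 in the Osa experiment. With the replicate block the HDAC1 RNAi response had 241 calls, the mean of responses 1021 and the shared changes 877.

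With library size alone, higher calls made up 78.5% of the Osa calls, against 42.0% with TMM, and 71.4% of the calls of the mean, against 44.4%.

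Leaving out 1 library at a time gave 36 to 3621 calls of the HDAC1 RNAi response, 498 to 3535 of the Osa overexpression response, 1 to 1049 of the difference of responses, 22 to 4024 of the mean of responses, 21 to 3449 shared changes and an agreement across genes (rho) of 0.146 to 0.364. The 77 named genes followed here were those with a shared change or a passing difference. Their choice from the same libraries thus favoured a kept direction. None of the results above and none of the 77 turned its direction. Many list medians did: leaving out 1 HDAC1 RNAi library turned HDAC1 medians, among others, of mitochondrial genome, Polycomb, Trithorax, histone acetylation, cell cycle, proteasome, glycolysis, insulin and TOR, and glutathione transferase genes, and library size alone turned the Osa medians of proteasome (−0.23 to 0.05), ecdysone (−0.04 to 0.22) and glutathione transferase genes (−0.22 to 0.06). Some medians also turned without single control or Osa libraries. Of the 77 named genes, 54 with library size alone, and 12 without Osa overexpression 1, were on the same side of the threshold as in the fit reported.

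With 2 libraries a group and 1 discordant pair, a small difference could not be seen. Genes under 1 CPM gave a rho of 0.109, and the part of depth in that value was not tested.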
